A study of Mus musculus with 8 samples.

Results

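10 genes for ligands that recruit and sustain macrophages and other leukocytes were examined in the mouse auditory nerve: the chemokines Cx3cl1, Cxcl12, Cxcl14, Cxcl16, Ccl2, Ccl7, Ccl12 and Ccl25, and the macrophage growth factors Csf1 and Il34. They were found by their symbols in a table of 15035 genes, which held 9 of the 10. Ccl2 was not analysed here. The nerves came from 8 mice at postnatal day 21, 4 labelled wild type (replicates 1 to 4) and 4 labelled heterozygous for Mef2c, a MADS-box transcription factor gene (replicates 5 to 8). The nerves of both ears were pooled, so each poly(A) RNA library stands for 1 mouse. The labels give no strain, sex, litter or targeted allele, and no agent was given to either group. The comparison asks what differs in the nerve when 1 copy of Mef2c is lost.

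Chemokines are small secreted proteins that cells lay down on the heparan sulfate of nearby surfaces and matrix, where leukocytes carrying the matching receptor follow them. Cx3cl1 (fractalkine) and Cxcl16 are unusual in being made as membrane-anchored proteins, which the proteases Adam10 and Adam17 can release. Csf1 and Il34 bind the same receptor, Csf1r, and keep tissue macrophages alive. In the cochlea, resident macrophages that carry Cx3cr1 lie among the spiral ganglion neurons and along their fibres.

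The genes lie on 5 chromosomes of the GRCm38 assembly, in RefSeq coordinates. Ccl2 (82035577 to 82037452), Ccl7 (82045712 to 82047525) and Ccl12 (82101845 to 82103399) are neighbours on chromosome 11, which also carries Cxcl16 (70454389 to 70459984). Chromosome 8 carries Ccl25 (4325205 to 4360020), Cx3cl1 (94772180 to 94782427) and Il34 (110741829 to 110805949). Csf1 is on chromosome 3 (107741048 to 107760469), Cxcl12 on chromosome 6 (117168535 to 117181368) and Cxcl14 on chromosome 13 (56288643 to 56296811), the chromosome of Mef2c (83504017 to 83667079). RefSeq promoter windows of 300 bases (250 before the start and 50 after it, GRCm38.p6) were found for 6 members. They were searched on both strands for an NF-kB type word (GGG and CC with any 5 letters between them, present in 50.8% of 32841 such windows), an AP-1 type word (TGANTCA, 7.81%) and a MEF2 type word (CTA and TAG with any 4 letters between them, 3.69%). The AP-1 and MEF2 words read the same on both strands. 4 windows are shown 5′ to 3′ on the strand of the gene, with matches in capitals. Csf1 and Cxcl12 are shown because theirs were the only member windows with any match, and Cxcl14 and Ccl12 because they had the largest differences between the groups among the members tested.
Csf1 (chr3:107760420-107760719, minus strand): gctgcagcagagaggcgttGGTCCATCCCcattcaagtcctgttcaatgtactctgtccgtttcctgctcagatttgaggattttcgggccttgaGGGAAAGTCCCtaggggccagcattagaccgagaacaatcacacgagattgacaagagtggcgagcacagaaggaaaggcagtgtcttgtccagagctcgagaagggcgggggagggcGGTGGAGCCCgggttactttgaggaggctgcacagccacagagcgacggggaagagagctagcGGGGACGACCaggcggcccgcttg
Cxcl12 (chr6:117168285-117168584, plus strand): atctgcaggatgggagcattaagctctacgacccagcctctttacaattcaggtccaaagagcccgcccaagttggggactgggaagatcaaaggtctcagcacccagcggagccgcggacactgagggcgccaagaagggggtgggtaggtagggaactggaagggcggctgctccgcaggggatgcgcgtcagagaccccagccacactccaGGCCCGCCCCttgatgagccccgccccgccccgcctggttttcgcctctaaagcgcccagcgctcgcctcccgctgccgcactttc
Cxcl14 (chr13:56296502-56296801, minus strand): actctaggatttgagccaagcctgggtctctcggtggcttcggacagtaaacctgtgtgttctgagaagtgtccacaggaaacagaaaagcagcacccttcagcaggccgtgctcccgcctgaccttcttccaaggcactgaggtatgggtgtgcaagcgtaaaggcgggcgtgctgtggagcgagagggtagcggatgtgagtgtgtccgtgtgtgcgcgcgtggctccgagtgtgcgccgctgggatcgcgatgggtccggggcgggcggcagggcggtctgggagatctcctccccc
Ccl12 (chr11:82101595-82101894, plus strand): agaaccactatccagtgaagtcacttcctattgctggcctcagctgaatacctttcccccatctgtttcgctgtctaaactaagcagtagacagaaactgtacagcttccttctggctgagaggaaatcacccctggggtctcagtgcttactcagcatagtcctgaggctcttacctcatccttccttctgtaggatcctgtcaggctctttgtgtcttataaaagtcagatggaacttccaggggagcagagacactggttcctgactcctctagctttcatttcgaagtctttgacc
All matches were of the NF-kB type, 5 in Csf1 and 1 in Cxcl12. A pair of the Csf1 matches overlap in GGGAAAGTCCC, which begins 155 bases before the start. The windows of Cxcl14, Ccl12, Cx3cl1 and Ccl25 held none of the 3 words. A match describes the letters only, and the word is held by about as many windows as lack it.

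The libraries were first checked against their labels. Mef2c had 462.0 ± 50.4 normalized counts in the wild-type libraries and 668.3 ± 66.8 in those labelled heterozygote (n = 4 each, SD). Its transcript was thus higher in the libraries whose label names the loss of 1 copy, and the labels state no transcript level. The log2 fold change was 0.53 (limma-trend adjusted p 0.186). In the authors' deposited table the ratio was 1.44 and the FDR 0.0162. Directions below are therefore between libraries as labelled. Estimated depth was 13363370 to 21507181 reads per library, and 1 read was worth 0.789 to 1.30 normalized counts. Markers of the nerve were present: the 12 spiral ganglion neuron genes summed to 200993 to 279048 normalized counts over the 8 libraries. Glial marker sums were lower in the libraries labelled heterozygote and did not overlap between the groups: the 10 Schwann cell genes summed to 223563 to 261513 in wild type against 168704 to 199675, the 10 satellite and non-myelinating glia genes to 89132 to 115808 against 49391 to 63584, and the 12 oligodendrocyte genes to 38830 to 42158 against 19805 to 27266. Xist was at 12 and 7.6 in wild-type replicate 1 and heterozygote-labelled replicate 5 and at 5175 to 8615 in the other 6 libraries. Wild-type replicate 1 was also the highest of all 8 libraries in 6 of 9 members (Cx3cl1, Il34, Cxcl12, Cxcl16, Ccl7 and Ccl12), against 26.1% of all tested genes.

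The ligands spanned a wide range of levels. Per kilobase of the longest coding transcript, and over all 8 libraries, Cx3cl1 was highest at 414 ± 23.9 normalized counts per kilobase (SD, n = 8). Cxcl14 followed at 364 ± 72.4 and Cxcl12 at 354 ± 38.5, and the ranges of these 3 genes overlapped. Their order differed by group: the group means of Cx3cl1, Cxcl14 and Cxcl12 were 424, 314 and 349 per kilobase in wild type and 404, 414 and 360 in the libraries labelled heterozygote. Il34 had 225 ± 54.3, Csf1 145 ± 21.6 and Cxcl16 124 ± 30.6 per kilobase, and the ranges of Il34 and Csf1 did not overlap while that of Cxcl16 overlapped with both. The inducible monocyte attractants were low, Ccl12 at 43.4 ± 28.7 and Ccl7 at 14.3 ± 11.9 per kilobase. Ccl25 lay beside Ccl12 at 41.0 ± 12.7.

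**Figure D1:**
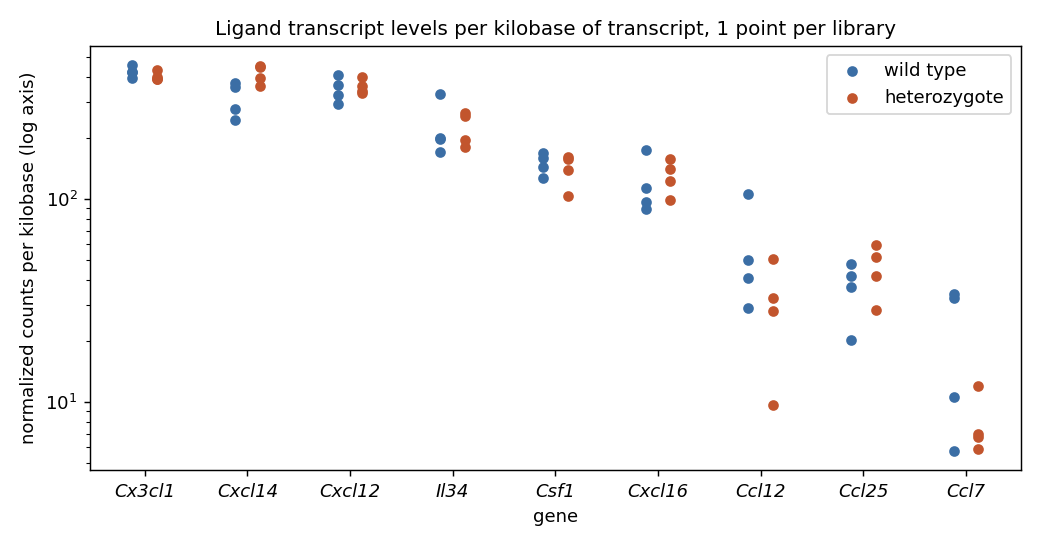
Normalized counts per kilobase of transcript (log axis) for the 9 ligands, with 1 point per library, wild type in blue and libraries labelled heterozygote in orange. Cx3cl1, Cxcl14 and Cxcl12 share the top of the order, and Ccl7, at 14.3 on average, is at the bottom.

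Between the groups, 0 of the 8 members tested had a limma-trend adjusted p under 0.05, against 0.0807% of the 14870 genes tested (12 genes). At an unadjusted limma-trend p under 0.05 there was 1 of 8, Cxcl14, against 14.1% of all genes (6.72% with the heterozygote label higher and 7.34% with it lower), and limma-voom on estimated reads gave the same counts of 0 and 1. In 0 of 8 did the groups fail to overlap, against 7.26% of all genes (3.4% higher and 3.86% lower). The median log2 fold change of the 8 was 0.04, beside 0.02 over all genes, with 5 higher and 3 lower. In the authors' deposited table, 0 of the 9 members had an FDR under 0.05, against 1.61% of its genes, and 1 (Cxcl14) had a p under 0.05, against 15.3%. Ccl7 reached 10 normalized counts in too few libraries to be tested. All fold changes are on the log2(value + 1) scale, libraries labelled heterozygote against wild type. The data come from whole nerve, so fewer cells of a type and less RNA per cell cannot be told apart.

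**Figure D2:**
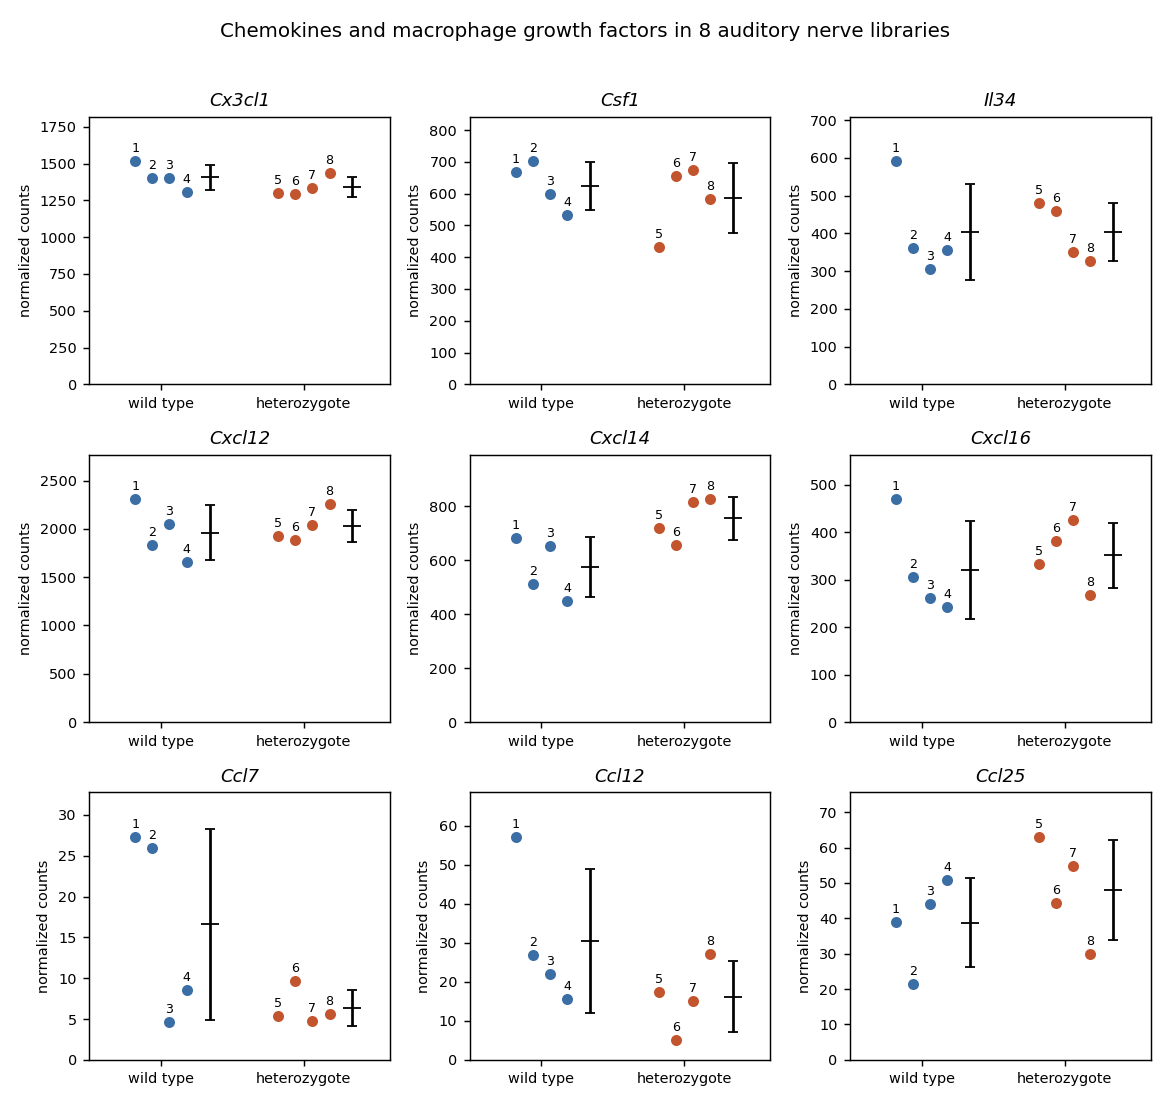
Normalized counts of the 9 ligands (vertical axes from 0) in each library, numbered by replicate, with bars for the mean and SD of each group (n = 4). In every panel the points of the groups overlap, and replicate 1 tops the wild-type points in 7 of the 9 panels, as it does in 34.1% of all tested genes.

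Of the macrophage growth factors, neither differed beyond the spread between libraries. Csf1, the colony-stimulating factor that drives macrophage survival and division, had 669.6, 701.8, 598.6 and 531.5 normalized counts in wild-type replicates 1 to 4. In heterozygote-labelled replicates 5 to 8 it had 432.3, 657.0, 673.8 and 582.2. Replicate 5 was the lowest of all 8 libraries and the other 3 lay within the wild-type range. The difference was -0.11 on the log2 scale (95% interval -0.45 to 0.24, limma-trend adjusted p 0.772), and without replicate 5 it was 0.03. Il34, the second ligand of Csf1r and a product of neurons in much of the nervous system, had 590.5, 360.4, 306.2 and 355.1 in wild type and 480.1, 459.2, 349.6 and 325.3 in the libraries labelled heterozygote. The means were nearly equal, 403.1 ± 127 and 403.6 ± 77.4 (SD, n = 4 each), and wild-type replicate 1 was alone above 500. For Il34 the log2 fold change was 0.03 (95% interval -0.43 to 0.49, limma-trend adjusted p 0.959), and 0.23 without wild-type replicate 1.

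Receptors of Csf1 and Il34 did not differ beyond the spread between libraries either. Csf1r, the tyrosine kinase receptor of macrophages, had 1277, 1065, 969.8 and 1003 normalized counts in wild type and 910.3, 1020, 1049 and 1022 in the libraries labelled heterozygote. The log2 fold change was -0.10 (95% interval -0.34 to 0.14, limma-trend adjusted p 0.679). Ptprz1 and Sdc1, which can also bind Il34, differed by -0.30 and -0.48 on the log2 scale (limma-trend adjusted p 0.379 and 0.501). Ptprz1 was at -0.17 without heterozygote-labelled replicate 5, and Sdc1 at -0.13 without wild-type replicate 1. Sdc1 had 429.6 in wild-type replicate 1 against 121.9 to 218.6 in the other 7 libraries. Ptprz1 is also a gene of oligodendrocyte precursors and astrocytes. The 8 astrocyte markers in the table summed to 44153 to 65687 in wild type and 36940 to 59814 in the libraries labelled heterozygote. Of these 8, 6 were lower there and 2 higher, with a median log2 fold change of -0.45. At an unadjusted limma-trend p under 0.05 there were 3 (37.5%), all lower, against 7.34% of all tested genes. The groups did not overlap in 3, all lower, against 3.86% of all tested genes, and 0 passed adjustment. Of the 12 oligodendrocyte markers (sums above), 10 were lower at an unadjusted limma-trend p under 0.05, against 7.34% of all tested genes. Past adjustment there were 2, against 0.0807% of all tested genes. The median log2 fold change of the 12 was -0.97. The 19 macrophage and microglia markers, all in the table and none at 0, summed to 7748 to 11523 and 7012 to 9135. Of these 19, 15 were lower in the libraries labelled heterozygote and 4 higher, with a median log2 fold change of -0.12. At an unadjusted limma-trend p under 0.05 there were 4 (21.1%), 3 lower and 1 higher, against 14.1% of all tested genes. None of the 19 passed adjustment. The part of any of these cells in the receptor values was not tested.

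Cx3cl1 was the steadiest of the ligands. The neuronal chemokine had 1516, 1403, 1401 and 1307 normalized counts in wild-type replicates 1 to 4. The libraries labelled heterozygote had 1301, 1291, 1332 and 1437. All 8 libraries thus lay between 1291 and 1516, with the groups overlapping. The SD within groups was 0.08 on the log2 scale, lower than that of all but 2.80% of tested genes, where the median was 0.24. This gave the narrowest interval among the members: the log2 fold change was -0.07 (95% interval -0.26 to 0.13, limma-trend adjusted p 0.736).

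Cx3cr1, the receptor of Cx3cl1, was more variable than its ligand. It had 680.0, 404.5, 512.4 and 359.9 normalized counts in wild type and 273.7, 568.1, 489.1 and 544.7 in the libraries labelled heterozygote. Its highest and lowest libraries were wild-type replicate 1 and heterozygote-labelled replicate 5, the same pair that was low in Xist. The log2 fold change was -0.07 (95% interval -0.62 to 0.47, limma-trend adjusted p 0.909) with all libraries, and 0.34 without that pair (limma-trend adjusted p 0.379). The sheddases Adam10 and Adam17 differed by 0.05 and -0.03 on the log2 scale (limma-trend adjusted p 0.857 and 0.937). Their 95% intervals were -0.18 to 0.28 and -0.34 to 0.28.

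Cxcl16, the other membrane-anchored chemokine and a scavenger receptor for oxidised lipid, had 469.2, 306.0, 261.7 and 242.6 normalized counts in wild type. The libraries labelled heterozygote had 332.3, 380.1, 425.6 and 266.5. Wild-type replicate 1 was the highest of the 8 and replicate 4 the lowest, so the wild-type points enclosed the others. For Cxcl16 the log2 fold change was 0.16 (95% interval -0.32 to 0.64, limma-trend adjusted p 0.747). It was 0.36 without wild-type replicate 1, 0.05 without wild-type replicate 4 and 0.06 without heterozygote-labelled replicate 7. Cxcr6, its receptor on T cells, was not analysed here.

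Cxcl12, the stromal chemokine that holds leukocytes and guides Schwann and neural precursors, had the most counts of any member. Wild type had 2307, 1832, 2053 and 1655 normalized counts, and the libraries labelled heterozygote had 1930, 1885, 2040 and 2252. The log2 fold change was 0.05 (95% interval -0.19 to 0.30, limma-trend adjusted p 0.840). It took the opposite sign, at -0.09, with the trend on transcript length removed. Cxcr4, its signalling receptor, had 150.5, 203.4, 189.7 and 97.8 in wild type and 197.7, 173.4, 243.1 and 219.4 in the libraries labelled heterozygote, with overlapping groups. For Cxcr4 the log2 fold change was 0.42 (95% interval -0.11 to 0.95, limma-trend adjusted p 0.437), and 0.20 without wild-type replicate 4. Ackr3, which takes up Cxcl12 and clears it, had a log2 fold change of 0.30 (95% interval -0.08 to 0.67, limma-trend adjusted p 0.442). Both receptors thus had point estimates above 0 that were within the spread between libraries.

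Cxcl14 had the smallest p of the members. This chemokine is made by epithelia, fibroblasts and some neurons. It had 682.6, 511.0, 651.7 and 450.5 normalized counts in wild-type replicates 1 to 4, and 721.2, 657.8, 816.1 and 827.0 in heterozygote-labelled replicates 5 to 8. The means were 574.0 ± 111 and 755.5 ± 80.6 (SD, n = 4 each). The groups overlapped by a single pair, since replicate 6 lay between wild-type replicates 3 and 1. On the log2 scale Cxcl14 differed by 0.41 ± 0.15 (standard error, 95% interval 0.08 to 0.74), and its limma-trend p was 0.0182 before adjustment and 0.286 after it. In the authors' deposited table the ratio was 1.32 and the FDR 0.2. The difference kept its sign in 19 of 19 alternatives, with log2 fold changes from 0.30 to 0.52 and limma-trend adjusted p from 0.0984 to 0.616. Among the 6 libraries with high Xist it was 0.52, with an unadjusted limma-trend p of 0.00779. The unadjusted limma-trend p was above 0.05 in 4 of the fits with a library left out: 0.0609 without wild-type replicate 4, 0.0542 without heterozygote-labelled replicate 8, 0.053 without wild-type replicate 2 and 0.0524 without heterozygote-labelled replicate 7.

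Marker sums of other cells were read beside Cxcl14. Of the cochlear hair and supporting cell genes, 11 of 12 were in the table and none was at 0. These 11 summed to 26796 to 29438 normalized counts in wild type and 33397 to 38104 in the libraries labelled heterozygote, without overlap. Gene by gene, 10 were higher there and 1 lower, with a median log2 fold change of 0.26 (range -0.81 to 2.91). The groups did not overlap in 1 (9.09%), against 3.4% of all tested genes with the heterozygote label higher. At an unadjusted limma-trend p under 0.05 there were 3 (27.3%), all higher, against 6.72%, and 0 passed adjustment. The 10 fibroblast genes, all in the table, summed to 99536 to 133881 and 120813 to 144000, with overlap. Fibroblast markers had their lowest sum of the libraries labelled heterozygote, 120813, in replicate 8, where Cxcl14 was highest. The 12 osteoblast and osteocyte genes summed to 54504 to 64134 and 60916 to 76474, with overlap. Their median log2 fold change was 0.53, beside 0.02 over all genes. The part of any of these cells in the Cxcl14 values was not tested. The tested genes whose profile over the 8 libraries was most like that of Cxcl14 were Cdkl4 and Scn3b, both with a Pearson r of 0.98. For Cx3cl1 they were Pik3c2a and Arl13b (0.97 and 0.96) and for Ccl12 Moxd1 and Wdr36 (0.98 and 0.97). These are the best of all tested genes over the same 8 libraries, given as a description only.

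The monocyte attractants Ccl7 and Ccl12, which act through Ccr2, were near the limit of what these libraries resolve. Ccl7 had 27.3, 26, 4.6 and 8.5 normalized counts in wild-type replicates 1 to 4, from 21, 33, 5 and 7 estimated reads. The libraries labelled heterozygote had 5.4, 9.6, 4.7 and 5.6, from 5 to 11 reads. Wild-type replicates 1 and 2 were thus the high pair, and replicates 3 and 4 sat among the libraries labelled heterozygote. The difference between the group means of log2(value + 1) was -0.998, and -0.67 without wild-type replicate 1. With no filter on low values the limma-trend adjusted p was 0.498. In the authors' deposited table the Ccl7 ratio was 0.384 (log2 ratio -1.38), with an FDR of 0.377.

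Ccl12 had 57.1, 26.8, 22 and 15.7 normalized counts in wild type and 17.4, 5.2, 15.1 and 27.2 in the libraries labelled heterozygote. Wild-type replicate 1 was more than 2 times any other library, and the rest overlapped. For Ccl12 the log2 fold change was -0.90 (95% interval -2.16 to 0.37, limma-trend adjusted p 0.488), and -0.55 without wild-type replicate 1. It was -0.47 without heterozygote-labelled replicate 6, which had 6 estimated reads, and -0.59 with the trend on transcript length removed. The SD within groups was 0.85 on the log2 scale, higher than in 94.8% of tested genes. Ccl7, Ccl12 and Ccl2 are close relatives in sequence, and how the authors' counting treated shared reads was not given in the sources used here.

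Il1b, the macrophage cytokine that induces such chemokines, was singled out after its values were seen. It had 41.5, 27.6, 4.6 and 7.2 normalized counts in wild type and 0.9 to 8.5 in the libraries labelled heterozygote, so it shared with Ccl7 its high pair of libraries. Il1b too was below the filter on low values. Ccr2 had 38.9, 37.9, 37.6 and 4.8 in wild type and 11.9, 11.3, 65 and 33.8 in the libraries labelled heterozygote. Its log2 fold change of 0.02 had a 95% interval of -1.60 to 1.63 (limma-trend adjusted p 0.993), wider than that of any ligand tested, with libraries from 4.8 to 65. The 6 monocyte markers in the table, of 8 listed, summed to 4934 to 7263 in wild type and 6959 to 9501 in the libraries labelled heterozygote. Most of these sums was Fn1, a matrix gene also made by other cells, at 4598 to 6907 and 6227 to 9140. All 6 had log2 fold changes above 0, from 0.02 to 3.38 with a median of 0.21, and F13a1 was at 0.06. At an unadjusted limma-trend p under 0.05 there were 2 (33.3%), against 6.72% of all tested genes that were so and higher. None of the 6 passed adjustment, and the groups overlapped in all 6, while they did not overlap in 7.26% of all tested genes. The lowest log2 fold change of the 6 was that of Ccr2.

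**Figure D3:**
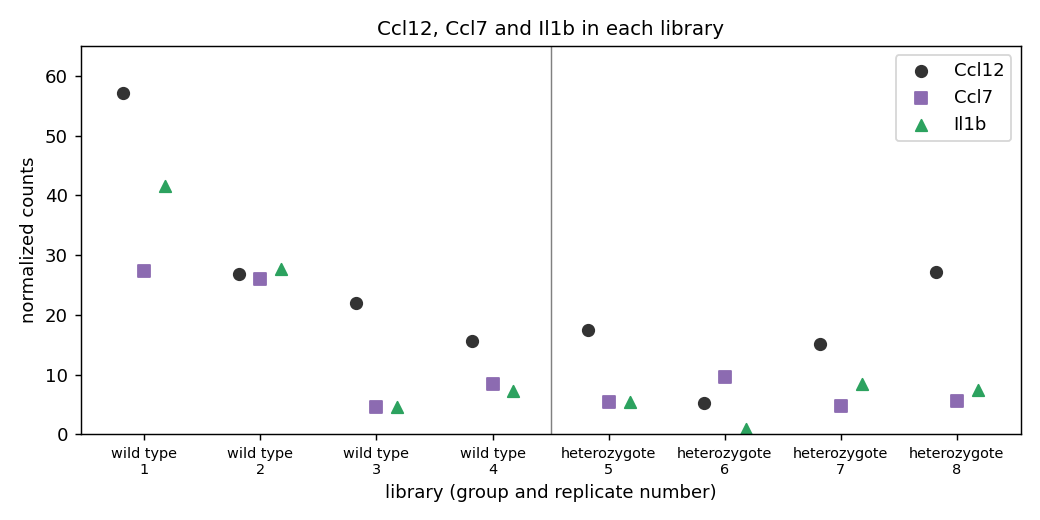
Normalized counts of Ccl12 (circles), Ccl7 (squares) and Il1b (triangles) in each of the 8 libraries, wild type left of the line and libraries labelled heterozygote right of it. Ccl7 and Il1b are above 25 in wild-type replicates 1 and 2 and below 10 in the other 6 libraries.

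Ccl25, known for drawing T cell precursors to the thymus and lymphocytes to the gut, had 38.9, 21.3, 44.0 and 50.7 normalized counts in wild type. The libraries labelled heterozygote had 63.0, 44.4, 54.7 and 30.0. For Ccl25 the log2 fold change was 0.32 (95% interval -0.51 to 1.15, limma-trend adjusted p 0.711), and 0.06 without wild-type replicate 2, the lowest library. Ccr9, its signalling receptor, was at 3.9 to 24.7 in wild type and 8.7 to 21.7 in the libraries labelled heterozygote (limma-trend adjusted p 0.958).

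Ackr4, the atypical receptor that scavenges Ccl25 along with Ccl19 and Ccl21, was the receptor that differed most. It had 1.3, 22.9, 21.1 and 31.4 normalized counts in wild-type replicates 1 to 4 and 72.8, 51.4, 66.9 and 63.8 in heterozygote-labelled replicates 5 to 8. Every library labelled heterozygote was above every wild-type library. On the log2 scale Ackr4 differed by 2.19 ± 0.71 (standard error, 95% interval 0.63 to 3.74), and its limma-trend p was 0.0098 before adjustment and 0.266 after it. Wild-type replicate 1, with 1 estimated read, set much of that size: without it the log2 fold change was 1.32, with an adjusted limma-trend p of 0.163. In the authors' deposited table the ratio was 3.3 and the FDR 0.0672. It passed an adjusted p of 0.05 in 1 of 19 alternatives, the first residual principal component as a covariate (limma-trend adjusted p 0.0186, range 0.0186 to 0.616). That component is taken from the residuals of the genotype fit, so the log2 fold change stayed at 2.19 and only the error term changed. With it the count of genes past the threshold over all genes went from 12 to 576.

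Ackr4 was 1 of 28 receptors listed. Of these, 18 were in the table and were tested, 0 passed an adjusted limma-trend p of 0.05 (0 by limma-voom too, as in the lists of other chemokines and of inducing regulators), and 1 (Ackr4, 5.56%) was under 0.05 before adjustment, against 14.1% of all genes. In 12 the difference was above 0 and in 6 below, with a median log2 fold change of 0.06. Of 36 other chemokines and leukocyte growth factors, 13 were in the table and 12 were tested, with 0 past an adjusted p of 0.05 and a median of -0.07. The 1 gene under 0.05 before adjustment (8.33%, against the same 14.1%) was Ccl27a, a skin chemokine for T cells, with 843.2, 545.5, 519.4 and 578.7 normalized counts in wild type and 538.5, 438.1, 408.8 and 454.6 in the libraries labelled heterozygote. Its log2 fold change was -0.41 (limma-trend adjusted p 0.312), and -0.17 with the trend on transcript length removed. Near-identical copies of Ccl27a exist in the mouse genome, so its counts are uncertain. Next in that list by unadjusted p were Ccl9 and Tgfb1, at -0.55 and 0.27 on the log2 scale (limma-trend adjusted p 0.473 and 0.513).

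**Figure D4:**
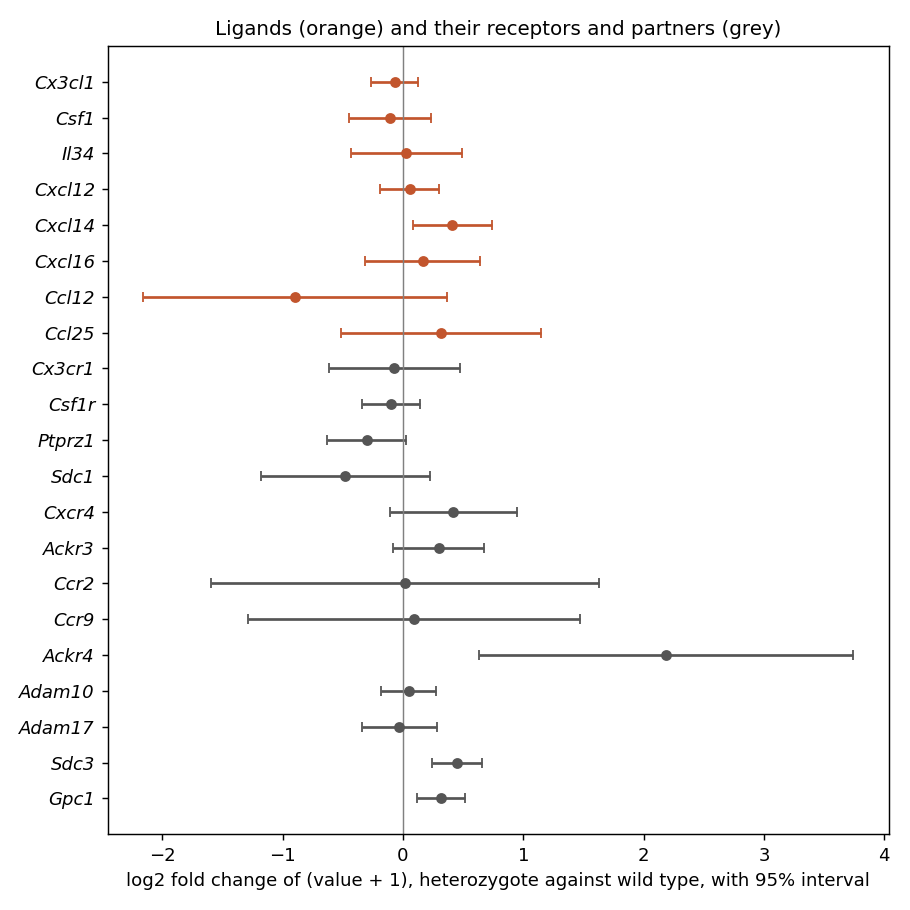
Log2 fold change (libraries labelled heterozygote against wild type) with its 95% interval from limma-trend, for the 8 tested ligands (orange) and for receptors, sheddases and proteoglycans (grey). The intervals of Cxcl14, Ackr4, Sdc3 and Gpc1 lie above 0, and none of these 4 passed the adjustment over all genes.

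Genes that hold or cut the ligands were examined next. Of 20 listed, 18 were in the table and tested. None passed an adjusted limma-trend p of 0.05 (0 by limma-voom too), and 6 (33.3%) were under 0.05 before adjustment, all higher in the libraries labelled heterozygote, against 6.72% of all tested genes that were so and higher. The count fell to 2 without wild-type replicate 4, to 3 without heterozygote-labelled replicate 6 or 8, and to 4 without wild-type replicate 2 or with the trend on transcript length removed. The 6 were Sdc3, Gpc1, Timp2, Timp3, Ndst1 and Mmp9, the last 3 named after their values were seen. Sdc3, a heparan sulfate proteoglycan of axons and glia, had 4284, 4093, 4591 and 3750 normalized counts in wild type and 5434, 5167, 5996 and 6235 in the libraries labelled heterozygote, without overlap. On the log2 scale Sdc3 differed by 0.45 ± 0.10 (standard error), and its limma-trend p was 0.000577 before adjustment and 0.154 after it. Gpc1, a heparan sulfate proteoglycan tethered by a lipid anchor, had 2310, 2386, 2076 and 2101 against 2574, 2717, 3108 and 2654, also without overlap. For Gpc1 the log2 fold change was 0.32 (limma-trend adjusted p 0.247).

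In the authors' deposited table Sdc3 had a ratio of 1.37 and an FDR of 0.00396. Its limma-trend adjusted p ranged from 0.0282 to 0.528 over the alternatives and passed in 2 of 19. These were the first residual principal component as a covariate and the fit without wild-type replicate 3 (0.0374). With that component 576 of all tested genes passed, against 12 without it, and the Sdc3 log2 fold change stayed at 0.45. With the trend on transcript length removed its log2 fold change was 0.33. Timp2, an inhibitor of matrix metalloproteinases, had a log2 fold change of 0.27 (limma-trend adjusted p 0.285). Mmp9, a gelatinase that also belongs to the neutrophil and osteoclast markers, had a log2 fold change of 1.29 (limma-trend adjusted p 0.330). The neutrophil markers, 7 of 14 in the table and none of these at 0, summed to 171.6 to 2737 in wild type and 828.6 to 6606 in the libraries labelled heterozygote. All 7 had higher fitted levels there, with a median log2 fold change of 2.10, and 0 passed adjustment. Of the 7, 6 had an unadjusted limma-trend p under 0.05, against 6.72% of all tested genes that were so and higher. In 4 the groups did not overlap, against 3.4% of all tested genes with the heterozygote label higher. Ltf made up 2176 of the sum of 2737 in wild-type replicate 1. The osteoclast markers, 3 of 7 in the table, summed to 298.8 to 1185 and 431.2 to 747.6. Their part in the Mmp9 value was not tested.

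**Figure D5:**
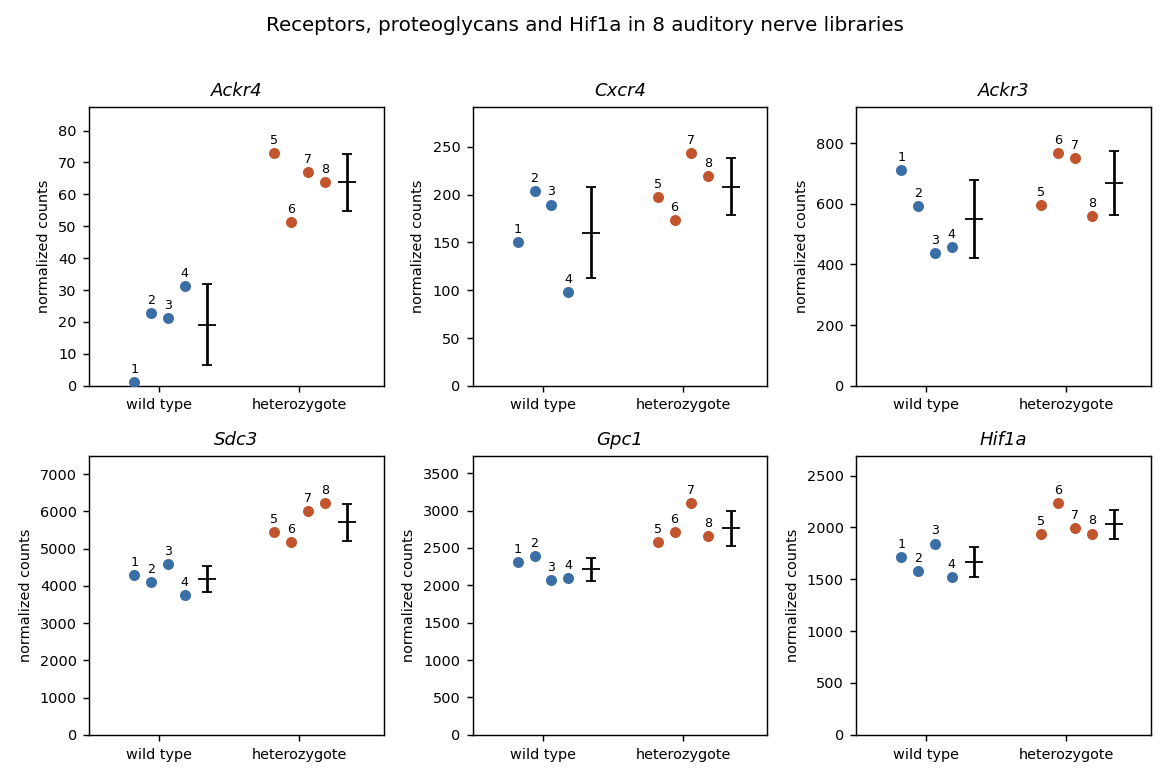
Normalized counts (vertical axes from 0) of Ackr4, Cxcr4, Ackr3, Sdc3, Gpc1 and Hif1a in each library, numbered by replicate, with the mean and SD of each group (n = 4). In Ackr4, Sdc3, Gpc1 and Hif1a all 4 libraries labelled heterozygote lie above all 4 wild-type libraries, as in 3.4% of all tested genes. The groups did not overlap in 5.56% of the 18 receptors, 11.1% of the 18 holding and cutting genes and 3.85% of the 26 regulators. Over all tested genes the share in either direction was 7.26%.

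Regulators that induce chemokines were examined last. Of 30 listed genes of NF-kB, interleukin, Toll-like and related signalling, 27 were in the table and 26 were tested. None passed an adjusted limma-trend p of 0.05, 1 (3.85%) was under 0.05 before adjustment, against 14.1% of all genes, and the median log2 fold change was 0.11, beside 0.02 over all genes. The 1 gene was Hif1a, the oxygen-sensing transcription factor that can induce Cxcl12, with 1713, 1580, 1844 and 1524 normalized counts in wild type and 1937, 2239, 1994 and 1941 in the libraries labelled heterozygote. The groups did not overlap, and the log2 fold change was 0.29 with a limma-trend adjusted p of 0.267. Tlr4 and Cebpb followed, at 0.40 and -0.25 on the log2 scale (limma-trend adjusted p 0.383 and 0.386). The NF-kB subunit genes Nfkb1 and Rela, whose site type is the one marked in the Csf1 window above, were picked after their values were seen. They differed by -0.02 and 0.01 on the log2 scale. The subunit genes Nfkb2 and Relb differed by 0.25 and 0.30 (limma-trend adjusted p 0.493 and 0.536).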

How the data were processed

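Poly(A) RNA was sequenced from 8 auditory nerve samples; samples of low RNA integrity had been left out, per the labels' protocols. The submitters' processing notes name Partek, STAR, DESeq2 and mm10, without roles; the counting method and annotation were not given in the sources used here. The authors' deposited signal columns appear from the values to be read counts scaled by 1 factor for each library, with 1 decimal. Per the file headers, the deposited comparison columns are a p-value and FDR, a ratio with its log2, and a signed fold score that was not used.

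The value of 1 read was estimated per library as the step that most values under 1000 are whole multiples of, within 0.051. This held for 88.7% to 92.0% of values (7.86% to 12.9% by chance), too few for a count model. 3 reads equal 2.37 to 3.89 normalized counts, and this floor covers counting error only.

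A gene was tested if 4 or more libraries reached 10 normalized counts (14870 genes). limma-trend was fitted to log2(value + 1) over the 8 libraries with genotype alone, p-values were adjusted by Benjamini-Hochberg over every tested gene, and 0.05 was the threshold. The fit was tested on simulated data. P-values measure the spread between mice. Transcript lengths are those of the longest protein-coding GENCODE M21 transcript (97.6% of genes matched by symbol). The alternatives were pseudocounts of 0.1 and 10, other filters, limma-voom on estimated reads, other scalings, low Xist (under 100) or the first residual principal component as a covariate, removal of a trend on transcript length (loess, span 0.5), and libraries left out. Named genes were the members, Mef2c, the members' receptors and sheddases, and of each list the 3 with the smallest unadjusted p; the genes most alike had a mean of at least 50. The members and lists were chosen with earlier results of these data known. Versions: limma 3.58.1 under R 4.3.3; matplotlib 3.10.9, pandas 2.3.3 and numpy 2.4.6 under Python 3.11.15.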

Additional observations from a re-analysis of the deposited data

Results flagged for a closer look

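Of 60 groups of 4 libraries checked (30 named genes in each genotype) for a single distant library, 1 qualified, where about 3 (1 in 20) would by chance. It was Ccr2 in wild type, with a gap ratio of 0.962, because replicate 4 had 4.8 normalized counts against 37.6 to 38.9 in the others.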

How the results depend on the processing

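The count of 0 members past the limma-trend adjusted p of 0.05 held in 19 of 19 alternatives, and the lists of other chemokines and of inducing regulators also stayed at 0. At an unadjusted p under 0.05 the members' count of 1 became 0 without wild-type replicates 2 or 4 or heterozygote-labelled replicates 7 or 8, and the processing genes' count of 6 ran from 2 to 7. The count over all genes, 12, became 576 with the first residual principal component as a covariate, 30 with the transcript length trend removed and 7 with quantile normalization, and 0 to 221 with a library left out (0 without wild-type replicates 2 or 4 or heterozygote-labelled replicate 8, and 221 without wild-type replicate 3). With the principal component the receptors had 1 gene past the threshold and the processing genes 2, and without wild-type replicate 3 the processing genes had 1 (range 0 to 1 with a library left out). Of 557 values of single genes, 522 kept direction and side of the threshold. Log2 fold changes near 0 changed sign in 9 genes. Without the libraries low in Xist, Csf1 had 0.069, Cx3cr1 0.34, Csf1r 0.027 and Adam17 0.11. With the transcript length trend removed, Cxcl12 had -0.088, Adam10 -0.053, Ccr2 -0.13 and Ccr9 -0.035. Ccr2 had -0.055 with limma-voom, -0.027 with a pseudocount of 10 and -0.046 with quantile normalization, and Ccr9 had -0.00012 with a pseudocount of 10 and -0.026 with quantile normalization. With a library left out, Csf1 ran from -0.18 to 0.033, Il34 from -0.087 to 0.23, Cxcl12 from -0.023 to 0.14, Cx3cr1 from -0.21 to 0.17, Ccr2 from -0.67 to 0.35, Ccr9 from -0.38 to 0.42, Adam10 from -0.0051 to 0.13 and Adam17 from -0.11 to 0.059. The cause was not tested. Ccl7, Ccl12, Ccl25, Ccr2, Ccr9 and Ccl9 gave no value at a filter of 50 in 4 libraries, since their levels are below it, and counting error is a larger share of low values. No paired analysis was possible because the groups share no replicate number.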
